A study of Mus musculus with 8 samples.

Results

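The clustered histone genes encode H1, H2A, H2B, H3 and H4 proteins and are named for the Hist1, Hist2 and Hist3 clusters of the mouse genome. All genes whose symbol begins with Hist1h, Hist2h or Hist3h were taken, which gave 68 of the 27998 genes listed for the first data set of the study (data set 1). By Ensembl gene ID, 65 of them were found among the 31053 genes of the second data set (data set 2). The 68 members comprised 6 H1, 19 H2A, 19 H2B, 12 H3 and 12 H4 symbols, 55 of them named for Hist1, 11 for Hist2 and 2 for Hist3. In a GENCODE annotation of the GRCm38 build, 66 IDs were found, 53 on chromosome 13, 11 on chromosome 3 and 2 on chromosome 11. These were annotated as protein-coding except 2: Hist1h2al is a processed pseudogene at chr13:51202727-51203065, far from the other Hist1 members, and the symbol Hist2h2bb stands on 2 IDs in data set 1, 1 of which is Gm42743, a lincRNA that overlaps Hist2h2bb on the same strand. Both IDs were kept, and Gm42743 had too few counts for the tests. Hist1h2al, Hist1h2bm and Hist1h2bh had no match in data set 2, so they have levels in data set 1 and enter no test.

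Single-cell RNA libraries were made from thymic epithelial cells (TEC), the stromal cells of the thymus, in its cortex (cTEC) and its medulla (mTEC). There were 8 libraries in 6 groups: mTEC came from adult mice only, in 2 libraries, and cTEC came from adult mice in 2 libraries and from newborn (NB), E17.5 and E15.5 mice in 1 library per age, with a single TEC library at E13.5. Data set 1 held E13.5, E15.5, NB, adult cTEC 1 and adult mTEC 1, and data set 2 held E17.5, adult cTEC 2 and adult mTEC 2. All mice were WT, of strain C57 B6 (CD45.2), and none carried a treatment or transgene. Cells were sorted from thymus as DAPI-, CD45- and EpCAM+. Further gating kept Ly51+ UEA-1- cells as cTEC and Ly51- UEA-1+ cells as mTEC, and at E13.5 no such gate was set. The label for growth names bone marrow suspensions, whereas the tissue label names thymus. The labels do not give the number of mice behind a library or the age of the adult mice. Ages below the adult had no second library, so a library could not be told apart from its age.

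Histones wrap DNA into nucleosomes, with H2A, H2B, H3 and H4 in the core and H1 as the linker between them. Most clustered genes are replication-dependent: their transcripts accumulate while DNA is copied, lack introns, and are cut after a short stem-loop bound by Slbp rather than given a poly(A) tail. Some members can also be read through to a downstream poly(A) site, and the libraries here were primed on poly(A), so a level below counts captured 3′ ends, and an order between genes or classes describes those counts and not the transcripts present in the cells.

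The stem-loops of the members that carried most of the counts, or that differ in their letters, are printed below so that the end signal can be read beside the levels. They were read 5′ to 3′ from the GENCODE transcripts (GRCm38), with 5 bases on either side where the transcript has them. Capitals mark the stem-loop, and each line gives the gene, its position and its strand.
Hist1h1c, chr13:23739507-23739532, plus strand: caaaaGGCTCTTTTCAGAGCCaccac
Hist1h1e, chr13:23621777-23621802, minus strand: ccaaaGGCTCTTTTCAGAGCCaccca
Hist1h2ap, chr13:21833026-21833049, minus strand: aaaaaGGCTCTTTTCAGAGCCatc
Hist1h2ae, chr13:23570663-23570688, minus strand: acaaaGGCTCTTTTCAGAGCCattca
Hist2h2ac, chr3:96220413-96220438, minus strand: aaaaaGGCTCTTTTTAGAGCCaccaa
Hist3h2a, chr11:58955167-58955192, plus strand: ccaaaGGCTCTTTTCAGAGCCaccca
Hist3h2ba, chr11:58949344-58949369, plus strand: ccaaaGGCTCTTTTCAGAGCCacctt
Hist1h3d, chr13:23576239-23576264, plus strand: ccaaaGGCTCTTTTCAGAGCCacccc
Hist1h3c, chr13:23745042-23745067, minus strand: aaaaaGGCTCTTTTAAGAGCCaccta
Hist1h4i, chr13:22040961-22040986, minus strand: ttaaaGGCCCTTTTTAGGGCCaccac
Hist1h4d, chr13:23581945-23581970, plus strand: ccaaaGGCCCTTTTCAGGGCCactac

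The search took 16 letters on the transcript strand that begin with GG, end with CC, hold a T-rich loop and have their first 6 bases complementary to the last 6. A match was found in 43 of the 66 annotated members. In 21 members it ended within 60 bases of the annotated transcript end. Of all 21901 coding genes, members included, 42 (0.192%) held the 16-letter pattern wholly inside the last 60 bases. That search did not ask for complementary ends, so the 2 counts follow different rules. The H2A, H2B, H3 and H1 members printed share the letters of the stem, and the H4 members printed carry other letters there. Among the members with the most UMIs, several had annotated models that ran past the signal. Hist3h2a extended 1643 bases beyond its stem-loop, Hist1h1e 1153, Hist1h1c 840, Hist1h4i 330, Hist3h2ba 169 and Hist1h2ae 151, whereas Hist1h2ap stopped 3 bases after it. For Hist1h2bc, whose annotated model has 2 exons, no stem-loop was found in the transcript, nor was one found for Hist1h1b, whose model has 743 bases. An annotated model may stop before the signal, so a missing match does not show that a gene lacks it.

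The starts of the genes also held shared motifs. RefSeq (GRCm38.p6) promoter windows of 300 bases, 250 before and 50 after the start, were matched for 59 member names with 60 windows, and were searched on both strands for 4 motifs, where matches may overlap and windows of neighbouring genes can share bases. The octamer ATTTGCAT occurred in 7 of 18 H2A and 6 of 15 H2B windows and in no window of the other classes, against 1.74% of all 32851 promoter windows. CCAAT occurred in 52 of 60 member windows (86.7%) against 37.4% of all, and in 3 of 11 H4 windows. TATAAA occurred in 35 (58.3%) against 13.6% of all. The H1 box, AAACACA, occurred in 5 of 6 H1 windows and in 3 windows of other members, against 7.18% of all. A match describes letters and not a bound factor.

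The 250 bases before the start are printed for 5 members that differ in the motifs they hold, with the matches in capitals. The Hist1h2ac window reaches the start of Hist1h2bc, which is read the other way, and the Hist1h2br window likewise reaches Hist1h2ap, so these stretches lie between the abundant members and their neighbours.
Hist1h1b, chr13:21780626-21780875, minus strand: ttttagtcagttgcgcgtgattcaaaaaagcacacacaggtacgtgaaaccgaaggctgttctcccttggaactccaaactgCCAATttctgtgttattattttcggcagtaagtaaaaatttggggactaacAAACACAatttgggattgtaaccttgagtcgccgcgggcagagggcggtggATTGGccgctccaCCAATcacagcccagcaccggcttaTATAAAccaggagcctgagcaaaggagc
Hist1h1c, chr13:23738557-23738806, plus strand: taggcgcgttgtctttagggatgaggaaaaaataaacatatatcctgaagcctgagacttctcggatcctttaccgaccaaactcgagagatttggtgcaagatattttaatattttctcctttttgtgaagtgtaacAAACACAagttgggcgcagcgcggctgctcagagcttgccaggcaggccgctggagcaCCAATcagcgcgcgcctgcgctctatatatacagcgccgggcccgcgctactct
Hist1h2ac, chr13:23683960-23684209, minus strand: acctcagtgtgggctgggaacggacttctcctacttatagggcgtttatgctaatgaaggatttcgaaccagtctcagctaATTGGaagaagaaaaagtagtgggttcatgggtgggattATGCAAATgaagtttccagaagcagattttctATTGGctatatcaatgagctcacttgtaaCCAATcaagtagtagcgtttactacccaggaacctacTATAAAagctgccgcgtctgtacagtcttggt
Hist1h2br, chr13:21833493-21833742, plus strand: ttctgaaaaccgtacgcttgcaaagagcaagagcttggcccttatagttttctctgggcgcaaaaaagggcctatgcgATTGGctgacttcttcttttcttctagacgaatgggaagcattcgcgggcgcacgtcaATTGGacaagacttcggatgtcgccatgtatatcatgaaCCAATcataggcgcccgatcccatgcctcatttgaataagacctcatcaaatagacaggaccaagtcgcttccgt
Hist1h4i, chr13:22041363-22041612, minus strand: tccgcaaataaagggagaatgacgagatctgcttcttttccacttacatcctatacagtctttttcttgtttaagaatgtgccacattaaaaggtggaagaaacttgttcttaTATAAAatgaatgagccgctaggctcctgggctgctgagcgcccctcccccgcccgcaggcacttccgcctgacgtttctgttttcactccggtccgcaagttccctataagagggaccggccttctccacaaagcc

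After limits on mitochondrial counts and genes per cell, 25436 epithelial-like cells remained, and the libraries held 2257967 to 90103548 unique molecular identifiers (UMIs, counted captured molecules) in cells within the limits. A cell was called cycling when its proliferation score, built from 43 S phase and 54 G2M phase genes, none of them a member, was above 0, and resting otherwise. Cycling cells made up 76.0% of E13.5 TEC, 29.2% of E15.5, 16.2% of E17.5 and 11.1% of NB cTEC, 1.42% and 9.72% of adult cTEC 1 and 2, and 10.9% and 16.1% of adult mTEC 1 and 2. Adult cTEC 1 held 7 cycling cells, fewer than the 10 required, and its cycling level is shown but not tested. All 7 epithelial markers were detected in cycling and resting cells of every library. Thymocyte markers summed to 541 CPM (counts scaled to the same total in each library and kind of cell) in cycling against 71.4 in resting cells of adult cTEC 2, and in E17.5 cTEC erythroid markers, haemoglobin genes among them, summed to 648 against 283 CPM and parathyroid markers to 285 against 44.5 CPM. In the 7 cycling cells of adult cTEC 1, myeloid markers summed to 3006 against 171 CPM in resting cells and thymocyte markers to 175 against 43.8 CPM. Mesenchymal markers were also higher there (1049 against 494.5 CPM), whereas the endothelial, erythroid, parathyroid and thyroid lists were lower. A thymocyte-like and a parathyroid-like cluster of data set 1 were removed, whereas in data set 2 a dividing cluster of 407 cells with Pth among its leading genes was kept, since it held 2 parathyroid markers at the required fold and 3 were needed. By the same rule a cluster of 60 cells in data set 1, led by Hhex, Nkx2-1 and Pax8 and with 2 thyroid markers at that fold, was kept. At E13.5 thyroid markers summed to 37.9 CPM in cycling against 11.9 CPM in resting cells. The libraries shared at most 1.90% of the cell barcodes of the smaller library of a pair.

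A few genes held most of the UMIs of the members. Hist1h2bc, an H2B gene, had 54247 UMIs over the 8 libraries, or 33.8% of the total, and the H2A gene Hist1h2ap had 32108. The linker gene Hist1h1c held 10.8%, the H2A gene Hist3h2a 10.5% and Hist1h4i 4.57%. At the other end, 15 members had fewer than 50 UMIs in all 8 libraries together, and Hist1h4m and Hist1h2ba had none. The H3 class was the lowest of the summed levels in resting cells of every library, at 4.39 to 15.9 CPM.

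Summed over each class, H1, H3 and H4 were higher in cycling than in resting cells in each of the 7 libraries compared. H1 members summed to 157 CPM in resting and 449 CPM in cycling E13.5 cells (95% Poisson interval of the cycling value 437 to 461, for counting error only), to 71.7 and 359 CPM at E15.5, and to 71.4 and 82.2 CPM in adult mTEC 2, where the gap was smallest. The mean log2 ratio of cycling to resting sums was 1.54 ± 0.80 (SD, n = 7) for H1, 1.35 ± 0.48 for H3 and 1.46 ± 0.54 for H4. H2B differed from these, with a ratio of -0.02 ± 0.43 that was below 0 in E13.5 TEC and both adult mTEC libraries and above 0 in the other 4. H2A had a ratio of 1.44 ± 1.19, and without Hist1h2ap alone it was 0.38 ± 0.12. The sums hold members listed in both data sets only, and no test was made on them.

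**Figure D1:**
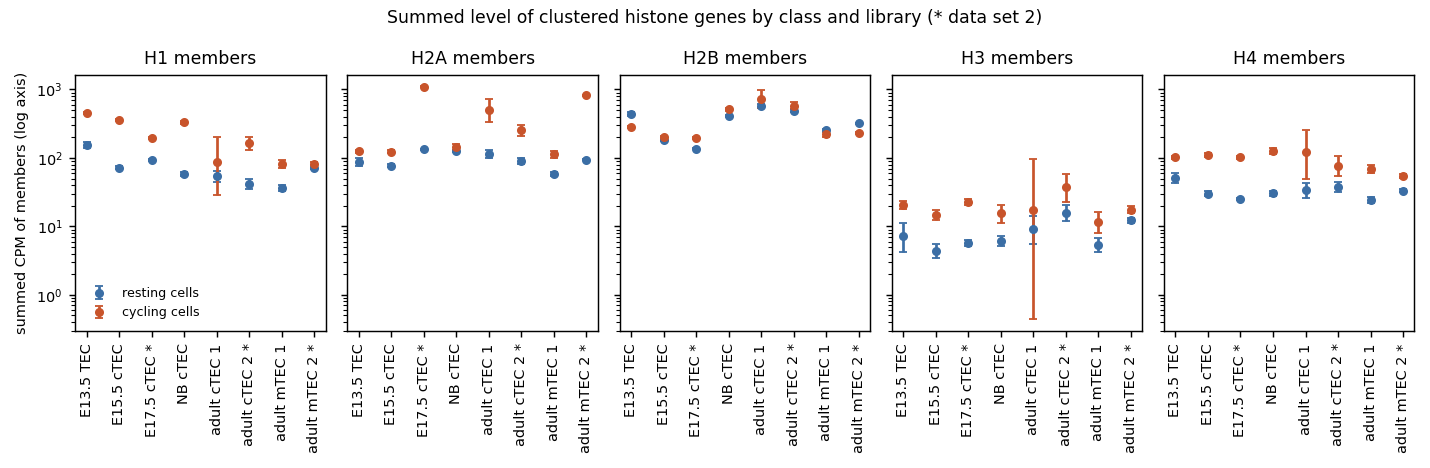
Summed CPM (log axis) of the members of each histone class in resting (blue) and cycling (red) cells of each library, with 95% Poisson intervals for counting error. Cycling cells lie above resting cells for H1, H3 and H4 in all 8 libraries, while H2B values of the same library lie close together, and H2A in cycling cells reaches 1100 CPM at E17.5 and 824 CPM in adult mTEC 2.

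Cycling and resting cells of the same library were compared to ask which members followed the cell cycle. Of 68 members, 45 passed the filter on low counts, and 31 of these were higher in cycling cells, against 8.42% of all 16943 genes tested (edgeR's quasi-likelihood test, Benjamini-Hochberg adjusted p under 0.05, 7 libraries). None was called lower, against 16% of all genes, and 35 of the 45 had an unadjusted p under 0.05. The median log2 change was 1.94 for the members tested and -0.16 for all genes. By class, 5 of 5 H1, 10 of 13 H2A, 8 of 12 H2B, 6 of 8 H3 and 2 of 7 H4 members were higher. DESeq2's test, which called 9.97% of all genes higher, called 21 of the 31, without Hist1h2ai, Hist1h2an, Hist1h2bb, Hist1h2bf, Hist1h2br, Hist1h3a, Hist1h3b, Hist1h3i, Hist2h2bb and Hist3h2ba. In 17 of 45 the cycling level was above the resting level in every library, whether or not the test was passed, against 8.84% of all genes.

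**Figure D2:**
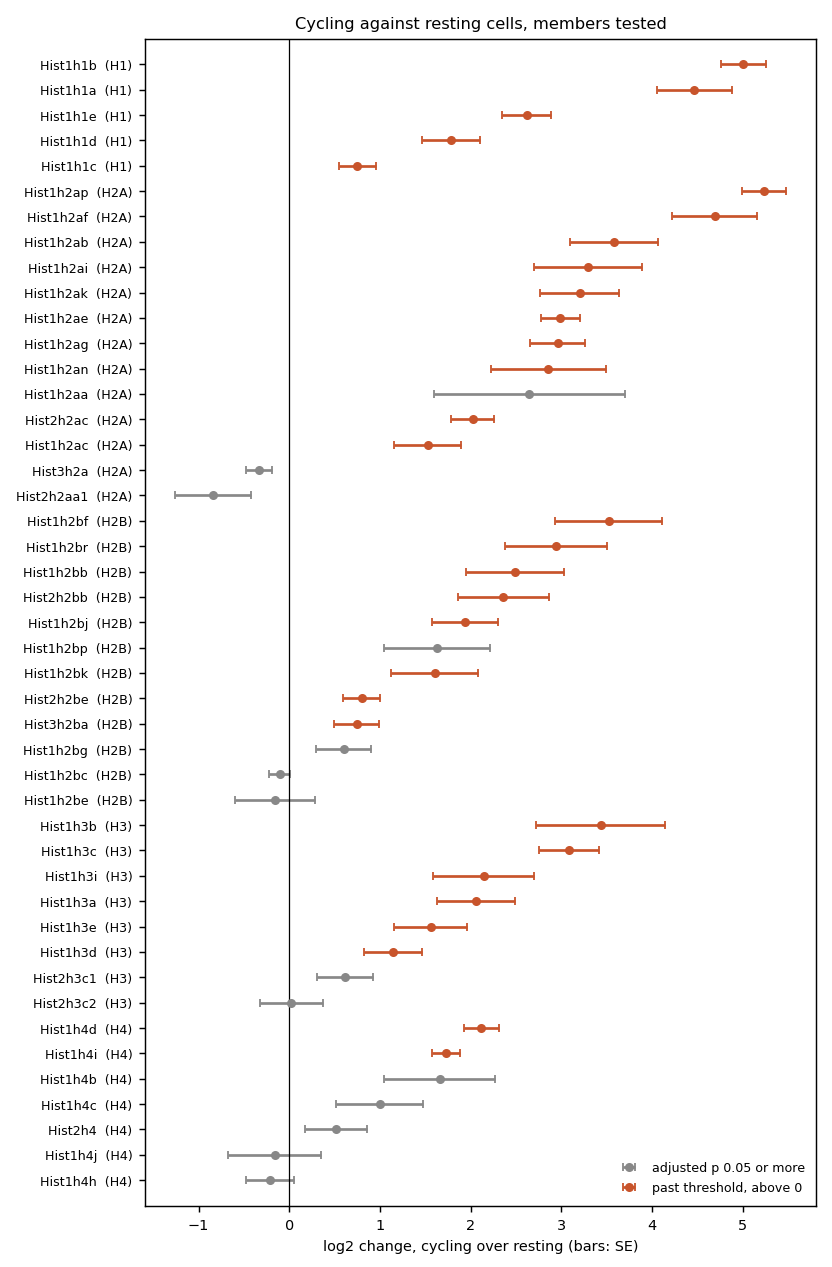
Fitted log2 change of each of the 45 members tested, cycling over resting cells, grouped by class, with bars of 1 standard error (SE). Red points passed the threshold above 0 (31 members) and grey points did not (14 members), and the H4 group and the lower ends of H2A and H2B hold most of the grey points near 0.

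Among linker histones, Hist1h1b, the H1.5 gene, had 11.9, 2.14, 1.18 and 0.896 CPM in resting cells of E13.5, E15.5, E17.5 and NB, and 0.952, 0.283, 0.218 and 0.622 CPM in adult cTEC 1 and 2 and adult mTEC 1 and 2. In cycling cells it had 177, 131, 28.1 and 68.0 CPM, and 17.48, 19.7, 8.73 and 12.5 CPM, in the same order. In all 8 libraries the cycling level was the higher one, and apart from E13.5 the resting levels did not overlap the cycling levels of any library. The fitted difference was 5.01 (SE 0.25) on the log2 scale, or 32.2-fold, with an edgeR adjusted p of 1.7e-09. No 90-base stretch of its annotated transcript occurs in another gene.

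Hist1h1e, the H1.4 gene, had 57.7, 28.6, 8.84 and 5.47 CPM in resting cells from E13.5 to NB, and 5.24, 0, 0.581 and 2.02 CPM in the adult libraries. Its cycling levels were 182, 110.4, 38.7 and 70.3 CPM, and 0, 7.87, 9.43 and 16.5 CPM. The level was higher in cycling cells in 7 of the 7 libraries tested, by 2.62 (SE 0.27) on the log2 scale (edgeR adjusted p = 5.67e-06), and both levels were lower in the adult libraries than at earlier ages. The annotated Hist1h1e model overlaps Hist1h2be on the same strand, so reads there could count for either gene.

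Hist1h1c, the H1.2 gene, was high in resting cells too, with 80.4, 38.1, 81.1 and 51.7 CPM from E13.5 to NB and 47.1, 39.6, 35.1 and 67.5 CPM in the adult libraries. Cycling cells had 66.1, 97.0, 121 and 172 CPM and then 69.9, 124, 59.7 and 48.8 CPM. The levels of the 2 kinds of cell overlapped, and in E13.5 TEC and adult mTEC 2 the resting level was the higher one. The fitted change was 0.75 (SE 0.20, edgeR adjusted p = 0.0137), and it stayed past the threshold in 11 of 17 alternative analyses.

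Among H2A genes, Hist1h2ap gave the largest fitted change of the members. Its resting levels in data set 1 were 0.398 (E13.5), 0.282 (E15.5), 0.249 (NB), 0 (adult cTEC 1) and 0.436 CPM (adult mTEC 1), and in data set 2 they were 26.7 (E17.5), 2.83 (adult cTEC 2) and 32.8 CPM (adult mTEC 2). In cycling cells it had 9.61, 23.4, 3.94, 140 and 40.5 CPM in data set 1, and 946, 144 and 737 CPM in data set 2. Within a library the cycling level was always the higher one, whereas between data sets the resting cells of E17.5 and adult mTEC 2 exceeded the cycling cells of E13.5, E15.5 and NB.

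The change in Hist1h2ap was 5.24 (SE 0.24) on the log2 scale, or 37.7-fold, with an edgeR adjusted p of 1.09e-09. It was 5.77 (SE 0.41) in data set 1 alone and 4.93 (SE 0.22) in data set 2 alone. Of its 90-base stretches, 92.4% also occur in other genes, and Hist1h2al, the H2A pseudogene, is counted in data set 1 only. There Hist1h2al had 6.77, 2.82, 1.24, 54.7 and 3.27 CPM in resting and 82.3, 69.9, 48.6, 192 and 46.5 CPM in cycling cells of E13.5, E15.5, NB, adult cTEC 1 and adult mTEC 1. Its cycling level was above its own resting level in each of these libraries. The level of Hist1h2ap between data sets cannot be told apart from the gene lists used for counting.

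Hist3h2a, an H2A gene on chromosome 11, had another course. Resting cells had 66.5, 68.0, 90.2 and 120.5 CPM from E13.5 to NB and 52.8, 64.8, 50.9 and 44.3 CPM in the adult libraries. Cycling cells had 42.5, 43.4, 64.4 and 91.9 CPM, and 35.0, 55.1, 52.4 and 42.7 CPM. The resting level was higher in 6 of the 7 libraries tested, with a fitted change of -0.33 (SE 0.15) that missed the threshold (edgeR adjusted p = 0.11). DESeq2's test, DESeq2 size factors, all clusters kept and a phase-based class each called it lower, as did 3 of the fits without 1 library (without E17.5, adult mTEC 1 or adult mTEC 2).

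Hist1h2ae had 2.09 to 5.57 CPM in resting cells of the 8 libraries, with a highest level at E13.5. Cycling cells had 28.8, 22.3, 57.5 and 27.6 CPM from E13.5 to NB, 23.6 CPM in adult cTEC 2, and 7.68 and 27.9 CPM in adult mTEC 1 and 2. Every one of these was above every resting level, and the fitted change was 2.99 (SE 0.22, 7.95-fold, edgeR adjusted p = 7.79e-08). The 7 cycling cells of adult cTEC 1 had 262 CPM, which stood apart from the rest, though all H2A members together had only 29 UMIs there. Hist1h2af, with 0 to 0.117 CPM in resting cells of the 7 libraries tested and 0.349 to 3.91 CPM in cycling cells, changed by 4.69 (SE 0.47). Hist1h2ag changed by 2.96 (SE 0.30), from 0.194 to 1.99 CPM in resting to 1.45 to 8.22 CPM in cycling cells. Hist2h2ac, in Hist2, changed by 2.02 (SE 0.23), while Hist2h2aa1, another H2A gene of that cluster, had a fitted change of -0.84 (SE 0.42, edgeR adjusted p = 0.155).

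**Figure D3:**
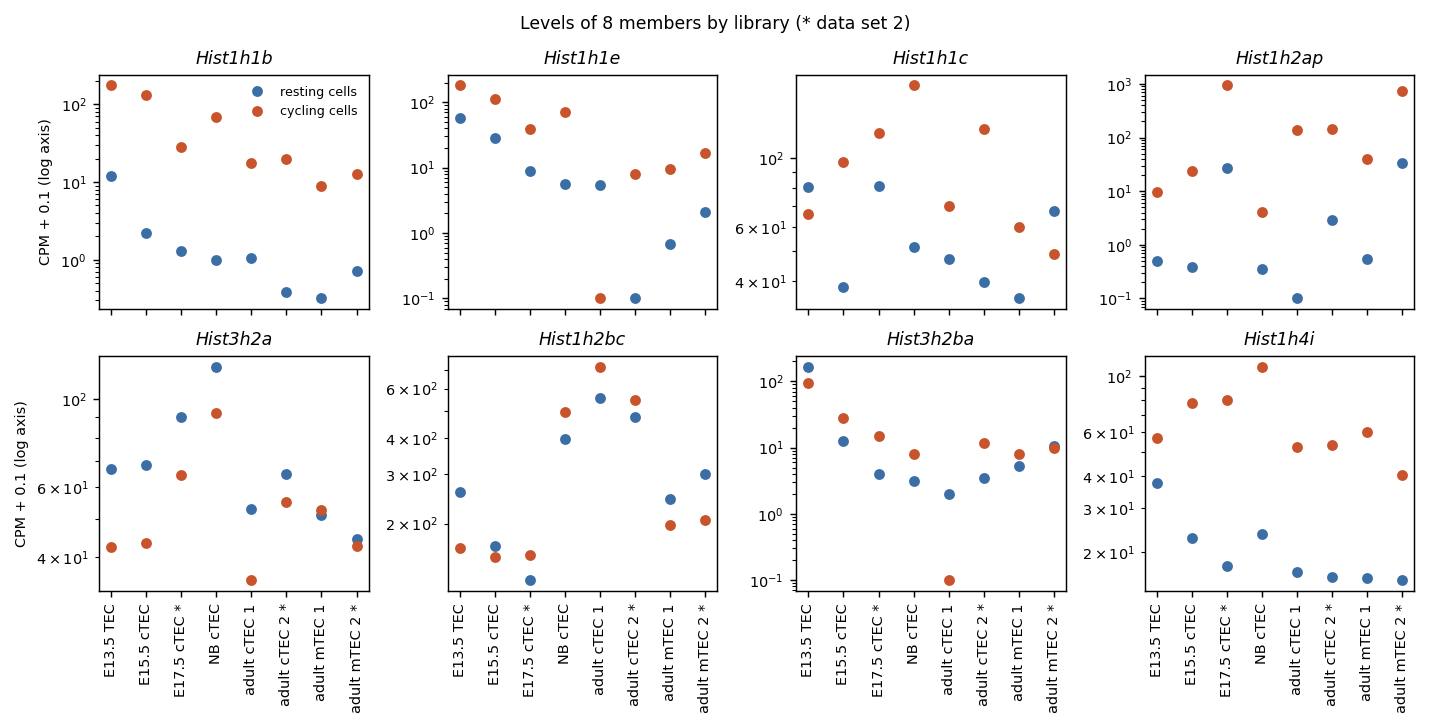
CPM + 0.1 (log axis, scaled for each panel) of 8 members in resting (blue) and cycling (red) cells of each library, with points at 0.1 standing for 0. Hist1h1b, Hist1h2ap and Hist1h4i show red above blue in every library, Hist3h2a and Hist1h2bc show points that overlap, and the highest Hist1h2ap values lie in E17.5 cTEC and adult mTEC 2, both of data set 2.

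Hist1h2bc, the most abundant member, set the level of the H2B class. It had 258, 166, 126 and 398 CPM in resting cells from E13.5 to NB, and 556, 476, 244 and 300.5 CPM in the adult libraries. In cycling cells it had 164, 152, 155 and 496 CPM and then 717, 547, 197 and 206 CPM. The libraries differed by far more than their 2 kinds of cell, with NB and adult cTEC high in both. The fitted change was -0.11 (SE 0.11, edgeR adjusted p = 0.525), with the cycling level higher in 3 of 7 libraries. The other H2B genes were far lower, and 8 of the 11 others tested were higher in cycling cells, among them Hist1h2bf at 3.52 (SE 0.59), Hist1h2br at 2.95 (SE 0.56) and Hist2h2be at 0.80 (SE 0.21).

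Hist3h2ba, the H2B gene next to Hist3h2a, had 166 CPM in resting E13.5 cells, and 12.6, 3.91 and 2.98 CPM at E15.5, E17.5 and NB. In the adult libraries it had 1.90, 3.40, 5.16 and 10.3 CPM. Cycling cells had 94.7, 27.9, 15.1 and 7.88 CPM, and 0, 11.8, 8.03 and 9.83 CPM. E13.5 stood above all other libraries in both kinds of cell. The change with cycling was 0.75 (SE 0.25, edgeR adjusted p = 0.0401), was seen in 5 of 7 libraries, and passed the threshold in 4 of 17 alternative analyses.

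Of the H3 genes, Hist1h3b, Hist1h3c, Hist1h3i, Hist1h3a, Hist1h3e and Hist1h3d were higher in cycling cells, by 3.44 to 1.14 on the log2 scale. The H3 members with the most UMIs were not among them: Hist2h3c1 had a fitted change of 0.61 (SE 0.31, edgeR adjusted p = 0.158) and Hist2h3c2 of 0.02 (SE 0.35, edgeR adjusted p = 0.97). Hist1h3d had 0.436 to 3.40 CPM in resting and 0.698 to 9.84 CPM in cycling cells of the 7 libraries, and was lower in cycling cells at E13.5 only. All 90-base stretches of Hist2h3c1 occur in other genes as well.

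Of the H4 genes, which encode the least varied core histone, Hist1h4i and Hist1h4d were higher. Hist1h4i had 37.4, 22.7, 17.52 and 23.5 CPM in resting cells from E13.5 to NB, and 16.7, 15.9, 15.8 and 15.4 CPM in the adult libraries. Cycling cells had 56.9, 78.2, 80.1 and 109 CPM, and 52.4, 53.1, 59.7 and 40.3 CPM. No cycling level overlapped a resting level, and the change was 1.73 (SE 0.15, 3.31-fold, edgeR adjusted p = 8.4e-07). Hist1h4d changed by 2.12 (SE 0.19). Hist1h4h had a fitted change of -0.21 (SE 0.26, edgeR adjusted p = 0.594), with a resting level of 1.07 to 2.19 CPM in the libraries before adulthood and 5.09 to 15.9 CPM in the adult ones.

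The calls were set beside the annotated 3′ ends. Of members whose model ended at a stem-loop, 10 of 14 tested were higher in cycling cells, with a median log2 change of 2.04, against 8.42% of all genes and a median of -0.16. Where no stem-loop was found in the model, 10 of 12 were higher with a median of 2.90, and where the model ran past the stem-loop 11 of 19 were higher with a median of 0.997. Several models without a stem-loop are short (Hist2h2bb 381 bases, Hist1h2ak 393, Hist1h3i 411) and may stop before it. That group therefore describes the annotation, and does not show that these genes lack the signal. These 3 groups are a description, and their difference was not tested. In the plot of change against bases after the stem-loop, the 33 members spread from 3 bases (Hist1h2ap) to 4884 bases (Hist1h1d).

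**Figure D4:**
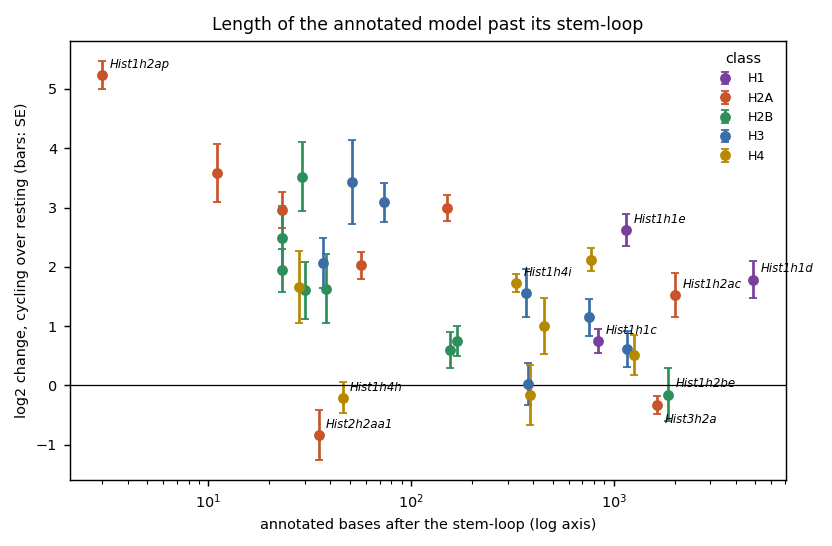
Fitted log2 change, cycling over resting cells (bars: SE), of the 33 tested members with a stem-loop against the number of annotated bases after it (log axis), coloured by class. Hist1h2ap is at the upper left, 3 bases past the stem-loop, and Hist3h2a, at 1643 bases, lies below 0. Hist1h1e at 1153 bases lies above 0 and Hist2h2aa1 at 35 bases lies below 0. A relation of the change to this distance was not tested.

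The data sets were also fitted apart. In data set 1, 17 of 40 members tested were higher in cycling cells, against 6.44% of 14532 genes, and in data set 2, 14 of 43, against 3.08% of 15639 genes. The calls shared 11 genes, 64.7% of those of data set 1 and 78.6% of those of data set 2, namely Hist1h1a, Hist1h1b, Hist1h1e, Hist1h2ae, Hist1h2af, Hist1h2ag, Hist1h2ak, Hist1h2ap, Hist1h3c, Hist1h4d and Hist1h4i. Of 38 members tested in both, 31 had estimates above 0 in both. Without adult cTEC 2, whose cycling cells had more thymocyte markers, 31 members were called and 30 of them were calls of all 7 libraries. Without the clusters led by haemoglobin genes, 32 were called, which held all 31. Without E17.5 cTEC, whose cycling cells had more erythroid and parathyroid markers, 22 were called and all 22 were calls of the 7 libraries. The part of those cells in the other 9 calls was not tested.

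Other histones and genes that act on histones were set beside the members in 3 lists, from which the genes of the proliferation score (Slbp, Casp8ap2, Nasp, Chaf1b, Hjurp and Cenpa) were left out. Their counts stand against the 8.42% of all genes that were higher in cycling cells. Of the histones outside the clusters, 6 of 11 tested were higher in cycling cells and 0 lower, led by H2afx at 3.01 (SE 0.13), which marks DNA breaks when phosphorylated, and by H1fx at 2.34 (SE 0.27). Of genes for histone transcription and 3′ end processing, 6 of 9 were higher and 0 lower, among them Npat, the activator of clustered histone genes, at 0.76 (SE 0.14) and Eri1, the nuclease that trims histone ends, at 1.19 (SE 0.11). Of chaperones, which carry histones to DNA, 9 of 14 were higher and 0 lower, led by Asf1b at 4.79 (SE 0.22) and Chaf1a at 2.70 (SE 0.15).

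Cycling cells were then divided by the larger of their 2 phase scores, and S phase was compared with G2M phase within 7 libraries. Of 34 members tested, 0 were higher in S phase, against 6.81% of 13418 genes, and 8 were higher in G2M phase, against 7.88% (edgeR's quasi-likelihood test). The median log2 change, S over G2M, was -0.65 for members and -0.02 for all genes, and 18 of 34 had an unadjusted p under 0.05. The 8 were Hist1h1c, Hist3h2a, Hist1h2ag, Hist1h2bc, Hist3h2ba, Hist2h2be, Hist1h2br and Hist1h4i. DESeq2's test called 6 members higher in G2M, against 5.16% of all genes, and 0 higher in S. In data set 1 alone 3 of 19 members tested were higher in G2M, against 4.54% of all genes. In data set 2 alone 9 of 35 were, against 2.34%. The median log2 change of members was -0.21 in data set 1 and -0.78 in data set 2.

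Hist1h2bc, which had no call between cycling and resting cells and went both ways over the libraries there, was called between the phases. In S phase it had 204, 82.6, 88.5 and 150 CPM from E13.5 to NB, and 181, 125 and 128 CPM in adult cTEC 2, adult mTEC 1 and adult mTEC 2. In G2M phase it had 131, 186, 206 and 693 CPM, and 912, 264 and 267 CPM. The G2M level was the higher one in 6 of 7 libraries, all but E13.5, by 2.11-fold in the fit (log2 change -1.08, SE 0.22, edgeR adjusted p = 0.00239).

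Hist1h1c had 58.4, 70.6, 85.5 and 120 CPM in S phase from E13.5 to NB, and 35.5, 31.9 and 18.8 CPM in the same adult libraries. In G2M phase it had 72.6, 110, 148 and 202 CPM, and 212, 85.6 and 72.3 CPM. It was higher in G2M in 7 of 7 libraries, by 1.93-fold (log2 change -0.95, SE 0.15, edgeR adjusted p = 0.00026). Hist3h2a was likewise higher in G2M in 7 of 7, with 14.5 to 80.4 CPM in S and 49.7 to 98.5 CPM in G2M phase (log2 change -0.95, SE 0.17). These 2 were past the threshold in both data sets alone and in all 15 alternatives.

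Hist1h4i fell in S phase against G2M by 0.65 (SE 0.12) and was lower in 6 of 7 libraries. Its change was -0.44 (SE 0.14) in data set 1 alone and -0.91 (SE 0.14) in data set 2 alone. Hist1h2bc changed by -0.85 (SE 0.29) and -1.34 (SE 0.14), and Hist3h2ba by -0.21 (SE 0.12) and -1.47 (SE 0.24), in the same order. All of them passed the threshold in data set 2 only. Hist1h2ag had a change of -1.05 (SE 0.28), lower in S in 6 of 7. The Hist1h2ag call held in 10 of 15 alternatives and was lost with DESeq2's test, in data set 2 alone and in fits without E13.5, E15.5 or E17.5, while Hist2h2be held in 9 of 15 and Hist3h2ba in 11 of 15. Without E17.5, 5 of 26 members were higher in G2M, against 4.93% of 12373 genes, 4 of them among the 8. Hist1h2br had the largest change at -2.72 (SE 0.47), from 7.58 to 0.951 CPM at E17.5 and from 3.04 to 0.571 CPM in adult mTEC 2, and it was at 0 in both phases in 3 libraries. Of its 90-base stretches, 99.8% occur in other H2B genes.

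The H1 genes Hist1h1b and Hist1h1a had estimates above 0, at 0.23 (SE 0.14, edgeR adjusted p = 0.315) and 0.43 (SE 0.18, edgeR adjusted p = 0.124). In data set 1 alone both were higher in S phase (4.996% of all genes there, with 4.54% higher in G2M), by 0.54 (SE 0.12) and 0.61 (SE 0.17), and in data set 2 alone (2.12% of all genes higher in S and 2.34% in G2M) neither passed, at -0.36 (SE 0.19) and 0.07 (SE 0.45). Hist1h1b had 209 CPM in S and 150 CPM in G2M phase at E13.5 and 101 and 49.0 CPM in NB, against 23.2 and 31.9 CPM at E17.5. The difference between the data sets was not tested. Hist1h2ap had a change of -0.15 (SE 0.11, edgeR adjusted p = 0.395).

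**Figure D5:**
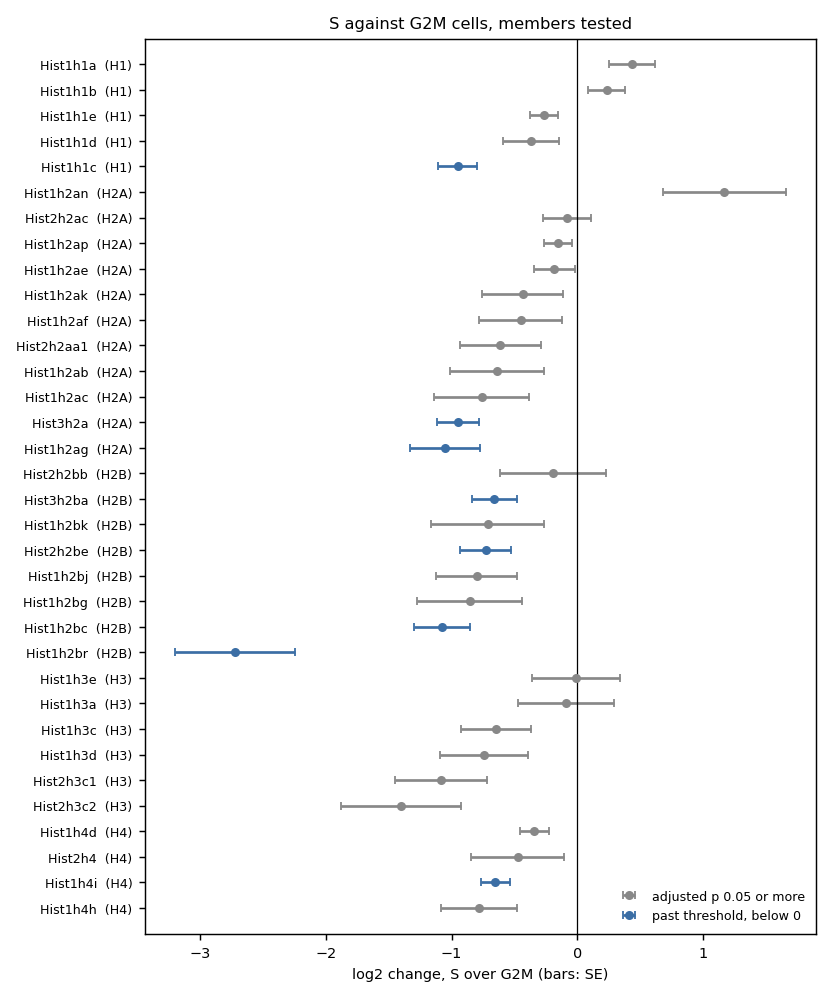
Fitted log2 change, S over G2M phase, of the 34 members tested, grouped by class, with bars of 1 SE. The 8 blue points passed the threshold below 0, no point passed above 0, and among the estimates above 0 are Hist1h1a and Hist1h1b.

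Between the phases the lists had calls in different directions, which stand against 6.81% of all genes higher in S phase and 7.88% higher in G2M. Of other histones, 0 of 11 were higher in S phase and 6 were higher in G2M, among them H2afx at -1.34 (SE 0.10) and H1f0, a linker histone known from resting cells, at -1.15 (SE 0.08). Of transcription and processing genes, 4 of 9 were higher in S phase and 0 in G2M, with Npat at 0.63 (SE 0.12). Of chaperones, 7 of 14 were higher in S phase and 0 in G2M, led by Chaf1a, which deposits H3 and H4 on copied DNA, at 1.32 (SE 0.10).

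In resting cells of E13.5 TEC and the 5 cTEC libraries, the slope on stage, from E13.5 as 1 to adult as 5, was fitted with data set as a term. The E13.5 cells were sorted without the cTEC gate, so the age step from E13.5 and the change of gate cannot be told apart. The mTEC markers summed to 1652 CPM at E13.5, to 135 to 286 CPM in E15.5, E17.5 and NB cTEC, and to 5904 and 1163 CPM in adult cTEC 1 and 2. Mesenchymal markers summed to 101 CPM at E13.5, 5.18 to 28.9 CPM from E15.5 to NB, and 494.5 and 299.3 CPM in the adults. Myeloid markers had 0.919 to 4.78 CPM before adulthood, then 171 and 36.2 CPM, and thymocyte markers 7.32 to 16.2, then 43.8 and 71.4 CPM. Erythroid markers were highest at E17.5, at 283 CPM. The part of these markers in the slopes was not tested. Of 27 members tested, 0 rose with age, against 3.57% of 13498 genes, and 0 fell, against 0.948% (edgeR's quasi-likelihood test). At an unadjusted p under 0.05 there were 11, and DESeq2's test called 4 rising (Hist1h2bc, Hist1h4h, Hist2h2aa1 and Hist2h2aa2), against 9.09% of all genes, and 3 falling (Hist1h1b, Hist1h1e and Hist3h2ba), against 5.32%. The nearest to the threshold were Hist3h2ba at -1.45 per stage (SE 0.31, edgeR adjusted p = 0.0571), Hist1h1e at -1.09 (SE 0.24, edgeR adjusted p = 0.0592) and Hist1h1b at -0.97 (SE 0.23, edgeR adjusted p = 0.0684), whose resting levels are given above and were highest at E13.5. On the other side, Hist1h2bc had a slope of 0.43 (SE 0.13, edgeR adjusted p = 0.111). Without adult cTEC 1 the fit called 0 genes of any kind. Of the lists, 0 of 11 other histones rose and 2 fell (H1fx and H2afx), no processing gene of 9 passed, and 1 of 13 chaperones rose (Daxx).

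Resting cells of adult cTEC and adult mTEC were compared over 4 libraries with data set as a term. Of 21 members tested, 3 were higher in cTEC, against 11% of 15325 genes, and 2 were higher in mTEC, against 22.4% (edgeR's quasi-likelihood test). The former were Hist2h2aa2 at 4.29 (SE 0.80), Hist2h2ac at 2.83 (SE 0.80) and Hist2h2aa1 at 1.91 (SE 0.60), 3 H2A genes of the Hist2 cluster, and the latter were Hist1h2ap at -3.55 (SE 0.74) and Hist3h2ba at -1.57 (SE 0.66).

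For 4 of the 5 calls 1 library stood apart, and in fits without 1 library at most 1 of the 5 held. Hist2h2aa2 had 26.2 and 1.42 CPM in adult cTEC 1 and 2, and 0.581 and 0.194 CPM in adult mTEC 1 and 2. Hist2h2ac had 16.2, 1.70, 1.38 and 0.408 CPM in the same order. Hist2h2aa1 had 6.66, 13.3, 0.291 and 8.48 CPM, so adult mTEC 1 was far below the other 3, and without it the estimate was 0.13 and no gene of any kind was called. Adult cTEC 1 was thus far above the other 3 for the first pair, as it was above the other libraries of data set 1 for Hist1h2al. Hist2h2aa1 and Hist2h2aa2 share most of their 90-base stretches with other genes (88.5% and 100%). For Hist1h2ap, 32.8 CPM in adult mTEC 2 stood against 0, 2.83 and 0.436 CPM, and without that library its estimate changed to 1.79. Hist3h2ba was lower in cTEC (1.90 and 3.40 CPM) than in mTEC (5.16 and 10.3 CPM) in both data sets. Adult cTEC 1 had 5904 CPM of mTEC markers, against 1163 CPM in adult cTEC 2 and 9451 and 4900 CPM in adult mTEC 1 and 2. In the same order, the 7 mesenchymal markers summed to 494.5, 299.3, 114 and 80.3 CPM, with 2 at 0 in each cTEC library and 0 at 0 in mTEC. The 7 myeloid markers summed to 171, 36.2, 496 and 673 CPM, and the 8 erythroid markers to 3.33, 1.42, 103 and 137 CPM. Among these lists, mesenchymal markers were thus higher in cTEC and the others higher in mTEC within each data set. Endothelial markers, at 74.24, 18.69, 21.95 and 14.29 CPM in the same order, were also higher in cTEC. Thymocyte markers, at 43.78, 71.35, 59.45 and 66.14 CPM, went both ways. The part of these markers in the differences was not tested.

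Fits without 1 of the 4 libraries called 0 or 1 of the members higher in cTEC and 0 higher in mTEC, and the fit without adult mTEC 1 called 0 genes of any kind. The calls of Hist2h2ac, Hist1h2ap and Hist3h2ba were each lost in all 4 of these fits. Hist1h2bc had a difference of 0.87 (SE 0.41, edgeR adjusted p = 0.0867), with 556 and 476 CPM in cTEC above 244 and 300.5 CPM in mTEC. Of the lists, 1 of 11 other histones (H2afz) was higher in mTEC, no processing gene of 9 passed, and 2 of 14 chaperones (Supt16 and Daxx) were higher in cTEC.

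The change with cycling was last compared between adult mTEC and the other libraries (E13.5 TEC and cTEC) by an interaction term. Both mTEC libraries were adult, whereas among the others in the fit only adult cTEC 2 was, so lineage and age cannot be told apart in this term. Of 45 members, 2 had a higher value of cycling over resting in mTEC, against 15.52% of 16943 genes, and 1 a lower one, against 6.9% (edgeR's quasi-likelihood test). The median of all genes was 0.11 here and moved to -0.22 with DESeq2 size factors, and the balance of calls over all genes turned with it, to 6.7% higher and 11.3% lower. With that scaling 1 of the 45 members was called higher and 6 lower. Without E13.5, 1 of 45 members was higher and 9 lower, with 1647 of 17037 genes higher and 2011 lower. Without E17.5, 1 of 43 was higher and 1 lower, with 547 of 16529 genes higher and 1113 lower. The estimate for Hist3h2a was 0.90 (SE 0.17), and 0.57 with DESeq2 size factors, or 0.78 and 0.79 above the median of all genes. In unscaled CPM its mean log2 ratio of cycling to resting was -0.48 ± 0.18 (SD, n = 5) in the other libraries and -0.0048 in the 2 mTEC libraries, a gap of 0.48. It was called in all alternatives run. In adult mTEC 1 and 2, mTEC markers summed to 9451 and 4900 CPM in resting and to 2962 and 3054 CPM in cycling cells. Myeloid markers summed to 496 and 673 CPM in resting and to 186 and 221 CPM in cycling cells. The part of this make-up in the interaction was not tested. The estimate for Hist1h1e was 1.30 (SE 0.42), or 0.96 with DESeq2 size factors, a call lost with DESeq2's test, with DESeq2 size factors and in fits without adult mTEC 1, adult mTEC 2, E13.5, E15.5 or E17.5. Hist1h4b, a low H4 gene with at most 35 UMIs in a kind of cell, had -2.84 (SE 0.97), a call lost with DESeq2's test and in fits without E15.5, E17.5, NB or adult mTEC 2. Of the lists, 2 of 11 other histones, 2 of 9 processing genes and 9 of 14 chaperones had a higher value in mTEC, and 1 chaperone (Asf1b) a lower one. With DESeq2 size factors these were 1 of 11, 1 of 9 and 5 of 14 higher, with 1 other histone (H2afx) and 2 chaperones (Asf1b and Daxx) lower.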

How the data were processed

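The authors sorted the cells, made Chromium version 2 libraries and counted UMIs per gene and cell. The submitters' processing notes name Cell Ranger 2.0.1, STAR 2.5.1b and mm10, while the headers of data set 2 name a later Cell Ranger. The deposited matrices hold raw counts, without normalization. Cells with over 5% mitochondrial counts or over 5000 genes were left out, and 1 thymocyte-like and 1 parathyroid-like cluster (both of data set 1) were removed. Cells were scored with S and G2M genes and divided at 0. Doublets were not removed: Scrublet marked 2.17% and 2.06% of cells in adult cTEC 1 and 2 and 0.0240% to 0.504% in the larger libraries. The expected rate set for it was 0.06, and whether its calls are right was not tested. Counts were summed per library and kind of cell over the 27514 genes in both data sets, and CPM are these sums scaled to a common total. Under R 4.3.3, low genes were dropped by filterByExpr and libraries scaled by TMM, and edgeR 4.0.16's quasi-likelihood test was adjusted over all genes by Benjamini-Hochberg (threshold 0.05), with library (cycling, phase) or data set (age, lineage) as a term, and DESeq2 1.42.0 as an alternative. SE is the estimate divided by the root of F. The fits were tested on simulated data. P-values for cycling, phase and the interaction rest on how the difference within a library varies over libraries of different ages and lineages. Those for age and lineage rest on the spread of libraries around the fit, with 1 library per age below the adult. Members and lists were chosen with earlier results of these data known. Named were the 3 members with most UMIs per class and up to 3 called per direction and comparison, with an average log2 CPM above 0. Others named (Hist1h1a, Hist1h2al, Hist1h2bf, Hist1h3c, Hist1h4b and those in lists of calls) were chosen after their values were seen.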

Additional observations from a re-analysis of the deposited data

Results flagged for a closer look

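By the interaction term, the log2 value of cycling over resting cells was higher in adult mTEC than in the E13.5 TEC and cTEC libraries for Hist3h2a (by 0.90, where it was lower in cycling cells of the latter and near level in mTEC) and for Hist1h1e (by 1.30), and lower for Hist1h4b (-2.84). With DESeq2 size factors, which moved the median of all genes from 0.11 to -0.22, these were 0.57, 0.96 and -3.20. The Hist3h2a call held in all alternatives run, while those of Hist1h1e and Hist1h4b were lost with DESeq2's test and in several fits without 1 library. Lineage and age cannot be told apart in these values, since mTEC were adult and most of the other libraries were not. Counts also stood in data outside the fits: in data set 1, Hist1h2al had 2209 UMIs, Hist1h2bm had 78 and Hist1h2bh had 15, and none of the 3 is listed in data set 2.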

How the results depend on the processing

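For the single members named in tests, 1073 of 1197 alternative values kept their side of the threshold and did not reverse a call (61 values changed sign where neither passed), 74 no longer passed, 48 newly passed and 2 reversed: Hist1h2ap in cTEC against mTEC became 1.79 without adult mTEC 2 (-11.58 without adult cTEC 2, where the lone cTEC library had 0 counts, so the size has no meaning), and Hist3h2ba 0.15 in cycling cells. Members higher in cycling cells numbered 22 to 31 in fits without 1 library (22 without E17.5), 21 with DESeq2's test, 39 of 63 tested without a filter on low counts, 17 with data set 1 and 14 with data set 2. Members lower numbered 0 to 1 without 1 library and 1 each with DESeq2's test, DESeq2 size factors, all clusters kept and a phase-based class. In S phase against G2M, 0 to 1 were higher in S without 1 library, 1 without the haemoglobin-led clusters (an alternative chosen after seeing the data) and 2 with data set 1, while 5 to 9 were higher in G2M without 1 library (5 without E17.5), 13 without a filter on low counts and 3 with data set 1. With age, 0 to 2 rose and 0 to 2 fell without 1 library; DESeq2's test gave 4 and 3, and all cells 1 and 5. Falling members numbered 1 with no filter, a phase-based class or data set 1 alone, 2 with all deposited cells and 3 with no data set term. Higher in cTEC were 0 to 1 without 1 library and 1 with no data set term or in cycling cells. Higher in mTEC were 0 without 1 library, with no data set term or in cycling cells, and 1 with DESeq2's test, no filter, all clusters kept, cells near a score of 0 left out, or all cells. The interaction gave 1 to 2 higher and 0 to 9 lower in mTEC without 1 library (9 without E13.5, 7 without adult mTEC 1), 1 and 2 with DESeq2's test, and 1 and 6 with DESeq2 size factors (chosen after seeing the data). The H2A ratio without Hist1h2ap was 0.60 with all clusters kept. The causes were not tested. Removal of Scrublet doublets was not run as an alternative. Depth limits low members most: 23 of 68 were not tested with cycling, 3 of them because data set 2 does not list them.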
